A study of Homo sapiens with 33 samples.

Results

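Genes of steroid hormone signalling were followed through 11 high-grade serous ovarian carcinoma (HGSOC) cell lines and through the resistant and sensitive lines of each family. They are the receptors ESR1, ESR2, PGR and NR3C1 and the estrogen targets GREB1, TFF1 and TFF3, chosen by symbol, and all 7 were present among the 29744 gene rows of the expression tables. The 33 mRNA libraries comprised 3 replicates of each line. OVCAR3 and OVCAR4 are established platinum-sensitive lines, and the study selected 2 resistant derivatives of each separately (ResA and ResB) with repeated short cisplatin pulses of rising dose, after which the cells were not kept in cisplatin. PEA1 and PEA2, and PEO1, PEO4 and PEO6, are lines from the same patient within each name, with PEA1 and PEO1 the sensitive ones. No steroid treatment is described, all lines were grown in serum-containing medium, and insulin was added to the medium of the OVCAR3 and OVCAR4 families but not to that of the PEA and PEO families. Which lines are sensitive or resistant was taken from the published description, since the labels name nothing but the line. Nothing states that replicates were separate cultures, so p-values measure only the spread between these libraries.

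Steroid receptors are ligand-activated transcription factors. ESR1 encodes estrogen receptor alpha and ESR2 estrogen receptor beta. PGR encodes the progesterone receptor and is itself a classic estrogen-induced gene, while NR3C1 encodes the glucocorticoid receptor. Bound to estrogen, ESR1 recognises estrogen response elements, which are paired inverted copies of a short motif, and induces genes such as GREB1, a cofactor of the receptor, and the secreted trefoil peptides TFF1 and TFF3. A gene that is called an estrogen target in breast cells need not respond in ovarian carcinoma cells, and the level of a receptor's mRNA does not report its activity.

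In RefSeq (GRCh38.p14), ESR1 lies on chromosome 6 from 151656672 to 152129619, ESR2 on chromosome 14 from 64226707 to 64338613, PGR on chromosome 11 from 101029624 to 101129813 and NR3C1 on chromosome 5 from 143277931 to 143435512. GREB1 lies on chromosome 2 from 11482888 to 11642788. TFF3 (42311667 to 42315409) and TFF1 (42362282 to 42366535) lie near each other on chromosome 21, with TFF2 between them. The 250 bases upstream of each annotated RefSeq start were searched on both strands for the full element, GGTCANNNTGACC, and for a single copy of its motif, GGTCA or TGACC, which the full element contains. Windows were at hand for ESR1, ESR2, PGR and NR3C1. None of their 21 windows held the full element, which was found in 0.0399% of the 35116 windows of all genes. A single copy was found in 5 of the 21 windows (23.8%), against 32.6% of all windows. The 2 sequences shown are the only ESR1 window with a single copy and the window at the outermost PGR start, since PGR is an estrogen target that was nearly absent where ESR1 was highest. Both are written 5′ to 3′ on the strand of the gene with the motif in capitals. A match is a description of the letters and not a binding site.
ESR1 upstream window, chr6:151690277-151690526, plus strand: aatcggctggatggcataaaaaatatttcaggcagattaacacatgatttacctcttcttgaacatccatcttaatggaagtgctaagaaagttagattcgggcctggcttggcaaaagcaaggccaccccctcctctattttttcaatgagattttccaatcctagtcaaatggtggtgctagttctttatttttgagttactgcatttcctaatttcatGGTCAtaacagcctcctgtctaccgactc
PGR upstream window, chr11:101129814-101130063, minus strand: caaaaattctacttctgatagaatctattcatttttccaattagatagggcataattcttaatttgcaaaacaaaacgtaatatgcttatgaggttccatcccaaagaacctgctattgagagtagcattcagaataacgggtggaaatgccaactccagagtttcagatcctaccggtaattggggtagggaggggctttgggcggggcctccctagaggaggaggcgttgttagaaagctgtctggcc
The ESR1 motif began 29 bases before the annotated start, and the PGR window shown held none. A single copy was found in 1 of 6 ESR1 windows and in the other 2 of 3 PGR windows.

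The libraries held 18058985 to 43394009 estimated counts. Replicates differed by more than counting noise, so none was counted as a repeat of another. The 7 carcinoma markers (PAX8, WT1, EPCAM, KRT7, KRT8, KRT18 and MUC16) summed to between 2236 and 7349 TPM (a level scaled by gene length and library total) in the libraries of every line but PEA1, where they summed to 403 to 445 TPM. In PEA1, 6 of the 7 markers had a mean of at least 1 TPM. MUC16 was at 0.0696 TPM, EPCAM at 14.0 TPM and PAX8 at 74.9 TPM there. The 8 stromal, endothelial and immune markers summed to 69.6 to 116 TPM in PEA1 and to at most 31.3 TPM elsewhere. In PEA1 only 2 of the 8 had a mean of at least 1 TPM, COL1A1 at 88.4 TPM and PDGFRB at 6.55 TPM. One library stood apart in a way that touched these genes. In 27 genes with at least 20 TPM in each of the 3 PEO lines and under 0.5 TPM in OVCAR4 and OVCAR4 ResB, replicate 1 of OVCAR4 ResA was the highest of its line every time, at a median of 5.97% of the mean PEO level, against 0.0641% and 0.0271% in replicates 2 and 3. This set of genes, which includes ESR1, was chosen after the data had been seen. In the OVCAR4 family, calls of the 7 genes and counts over gene lists that used this library are given with and without it, while the order of the lines and the search for like genes used all libraries. Pair fits in this family carried a replicate block, so without this library replicate 1 of the other line no longer bore on the fold change. Mitochondrial rRNA also differed between libraries of this family. It took 5.18%, 14.8% and 11.96% of the counts in replicates 1, 2 and 3 of OVCAR4, 9.23%, 2.02% and 2.09% in OVCAR4 ResA, and 13.1%, 2.47% and 2.39% in OVCAR4 ResB.

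**Figure D1:**
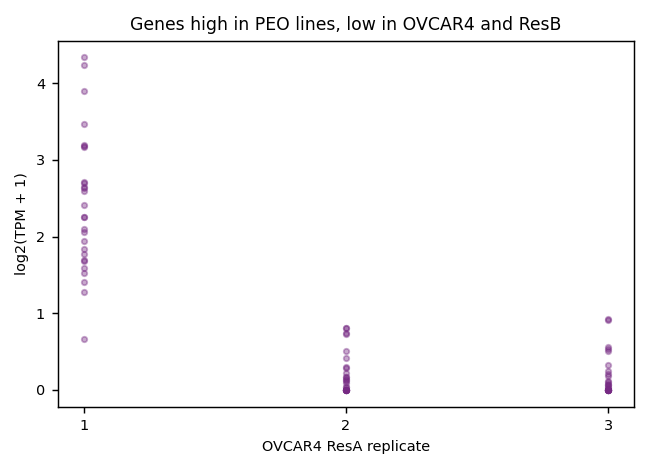
Levels of 27 genes, as log2(TPM + 1), in the 3 libraries of OVCAR4 ResA; each point is 1 gene in 1 library, and the genes have at least 20 TPM in every PEO line and under 0.5 TPM in OVCAR4 and OVCAR4 ResB. Replicate 1 was higher than replicates 2 and 3 for all 27 genes.

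ESR1 was a gene of the PEO family. Its level was 51.8, 45.9 and 52.5 TPM in the replicates of PEO1, 48.2, 38.9 and 40.2 in PEO4, and 22.9, 22.4 and 27.9 in PEO6. Libraries of PEO1 and PEO4 overlapped, and every PEO6 library lay below both. Outside this family the highest value was 3.75 TPM, in replicate 1 of OVCAR4 ResA, the library described above, whose other replicates were at 0.754 and 0.899. The excess of that library over its 2 partners equalled 7.51% of the mean PEO level for ESR1 and 3.96% for GREB1. ESR1 was itself among the 27 genes by which the library was described, so its value is no separate observation. PEA2 had 1.16, 0.977 and 0.585 TPM, and OVCAR4 and OVCAR4 ResB had 0.162 to 0.467 TPM and overlapped each other. The OVCAR3 family lay between 0 and 0.117 TPM, on at most 10 counts a library, and PEA1 had 0 counts in all 3 libraries.

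ESR2 was close to the limit of detection everywhere. Its line means ran from 0.0633 TPM in OVCAR3 ResB to 0.238 TPM in PEA2, on 1 to 20 counts a library. Each line overlapped the next lower one in the order, and ESR2 passed in none of the 10 comparisons by DESeq2 or edgeR, with adjusted p from 0.53 to 0.94 in the 8 where DESeq2 gave one.

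PGR did not have the pattern of ESR1. It was at 0.658 and 0.823 TPM in replicates 2 and 3 of OVCAR4 ResA (124 and 156 counts), at 0.206 TPM in replicate 1 (38 counts), and at 0.468, 0.101 and 0.0596 TPM in OVCAR4. In the PEO lines, with the highest ESR1, PGR never exceeded 0.0424 TPM or 10 counts. It had 0 counts in every library of OVCAR4 ResB, OVCAR3 ResB, PEA1 and PEA2, and at most 2 in those of OVCAR3 and OVCAR3 ResA.

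NR3C1 was the one receptor of the 4 with a mean above 5 TPM in all 11 lines. It was highest in PEO4, at 119, 109 and 78.2 TPM, followed by PEO1 at 56.3, 47.2 and 56.0 TPM. PEA2 (40.8 to 44.2), PEO6 (37.3 to 41.7), OVCAR4 ResB (22.7 to 37.7) and PEA1 (27.8 to 33.6 TPM) followed, each overlapping the next except PEA1, which lay above OVCAR4 ResA at 17.8, 21.5 and 25.8 TPM. OVCAR4 (7.62 to 12.1 TPM) and the OVCAR3 lines (4.55 to 9.19 TPM) were lowest, and neighbours among them overlapped.

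GREB1 was highest where ESR1 was high, but in another order. It was at 16.3, 19.5 and 12.7 TPM in PEO4, at 4.96, 10.6 and 7.28 TPM in PEO6 and at 7.30, 5.68 and 4.98 TPM in PEO1. PEO4 lay above both, and PEO6 and PEO1 overlapped. Next came OVCAR3 ResB (1.25 to 1.76 TPM) and OVCAR3 (0.995 to 1.29 TPM), lines with almost no ESR1. PEA2, with more ESR1 than any OVCAR3 line, had the lowest mean, at 0.0401, 0.0431 and 0.149 TPM.

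The trefoil genes each had 1 line. TFF1 was at 2.20, 3.96 and 3.76 TPM in PEA2 (13, 31 and 24 counts), at 0.355 to 0.937 TPM in OVCAR4 ResA, on 2 to 5 counts, and at no more than 3 counts in any other library. TFF3 was at 1.23, 2.28 and 1.13 TPM in OVCAR4 ResA (19, 33 and 17 counts) and at no more than 4 counts in any library of another line. Both had 0 or 1 counts in every PEO library. TFF2, the trefoil gene between them on the chromosome, passed the test only in PEA2 against PEA1, at least 2.54-fold higher (adjusted p = 0.024).

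**Figure D2:**
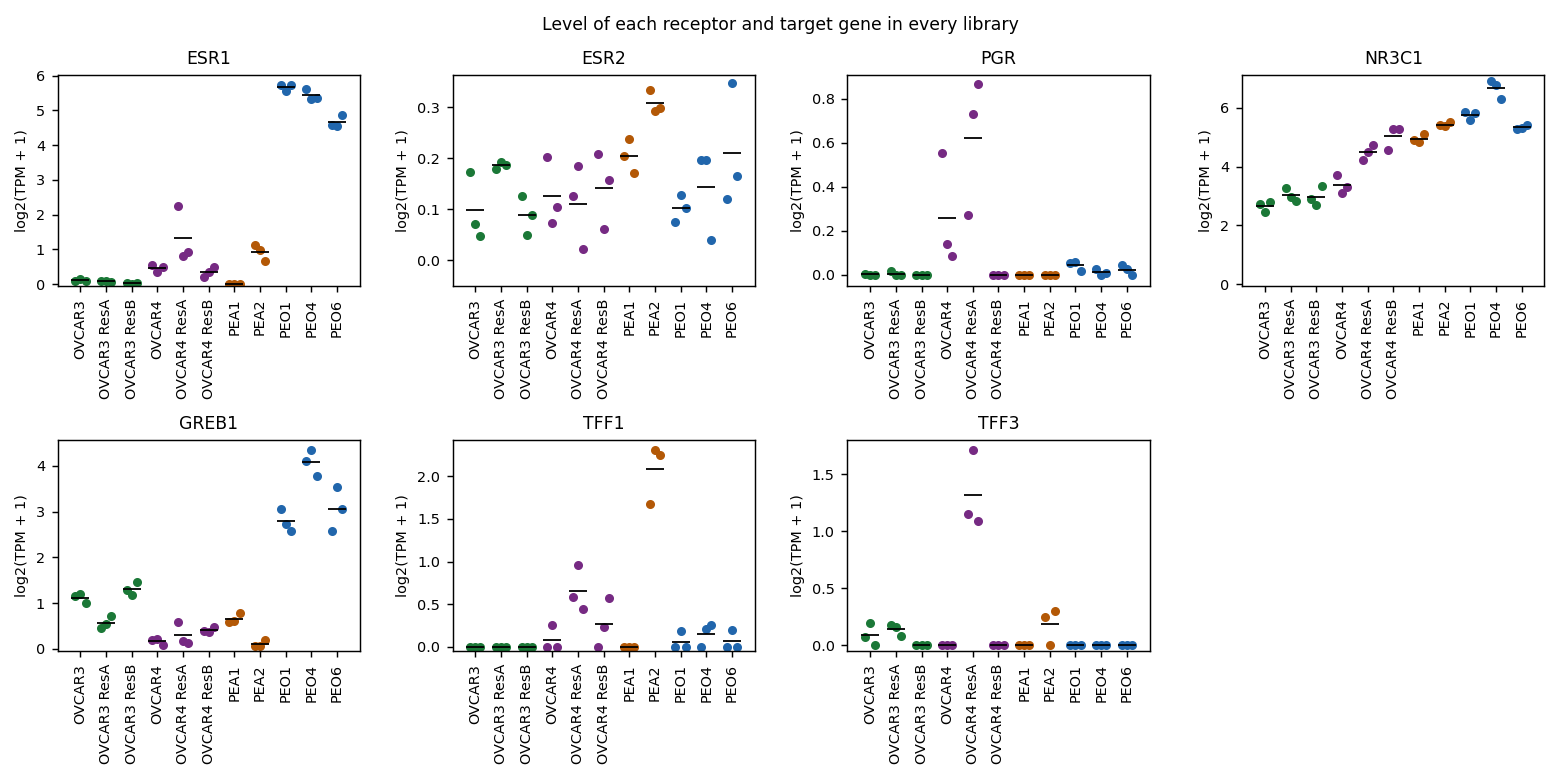
Level of each of the 7 genes in every library, as log2(TPM + 1), by line; points are the 3 libraries of a line, black bars their mean, colours the 4 families, and the vertical scales differ between panels. ESR1 and GREB1 were highest in the 3 PEO lines, PGR and TFF3 in OVCAR4 ResA, and TFF1 in PEA2.

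The comparisons between lines asked whether these genes differed between resistant and sensitive lines of one origin. Calls are from DESeq2 with the replicate number as a block, at an adjusted p under 0.05 over all genes. Percentages of all genes are taken over genes with an adjusted p. Counts of the 7 genes and of the longer lists include genes without one, so a list's share can be understated beside them. Of the 7, 6 had an adjusted p in OVCAR4 ResB against OVCAR4 ResA. It was 4 in PEO6 against PEO4 and in OVCAR3 ResA against its sensitive line, 3 where OVCAR3 ResB was compared, and 5 elsewhere. A fold against a line at 0 counts is a lower bound, computed against 3 counts per library.

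In PEA2 against PEA1, ESR1, TFF1 and NR3C1 rose and GREB1 fell. ESR1 was at least 33.9-fold higher (adjusted p = 2.0e-11) and TFF1 at least 7.28-fold higher (adjusted p = 6.1e-05), since PEA1 had no count of either. Without replicate 2 the adjusted p of ESR1 was 0.060. NR3C1 rose by a log2 fold change of 0.59 ± 0.22 (SE, adjusted p = 0.015), a call that edgeR kept and limma on log2(TPM + 1) did not (adjusted p = 0.076). The NR3C1 call was also lost without replicate 1 (adjusted p = 0.248). GREB1 changed by -3.41 ± 0.70 (adjusted p = 6.6e-06), against the direction of ESR1. These were 4 of the 7 genes, where 47.0% of all genes tested were called. ESR2 did not pass the test, PGR was at 0 in both lines, and TFF3 had at most 4 counts a library. PEA1 was the line with the low carcinoma marker sum and high COL1A1 (5 of the 7 carcinoma markers rose in PEA2, KRT7 by 8.61 ± 0.26 log2, and COL1A1 changed by -6.50 ± 0.27). The other carcinoma markers, PAX8 and WT1, were at 74.9 and 2.32 TPM in PEA1 and at 61.7 and 2.25 TPM in PEA2. Of the 8 stromal, endothelial and immune markers, 2 rose and 2 fell in PEA2. PTPRC was among those that rose, from 0 to 3.30 TPM. The part of these marker differences in the results was not tested.

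In the PEO family ESR1 and GREB1 passed together in only 1 of the 3 comparisons, PEO6 against PEO4, and were then both lower. ESR1 did not pass the test in PEO4 against PEO1 (log2 fold change -0.20 ± 0.17, adjusted p = 0.394), while GREB1 rose by 1.47 ± 0.18 (adjusted p = 2.1e-14) and NR3C1 by 0.95 ± 0.17 (adjusted p = 1.7e-07). These were 2 of 7 genes, against 33.3% of all genes. In PEO6 against PEO1, where 41.4% of all genes were called, ESR1 changed by -1.05 ± 0.21 (adjusted p = 5.3e-06) and NR3C1 by -0.50 ± 0.21 (adjusted p = 0.040). GREB1 had a log2 fold change of 0.23 ± 0.29 there and did not pass (adjusted p = 0.552). The NR3C1 call in PEO6 was lost in edgeR (adjusted p = 0.102) and without any 1 of the 3 replicates (adjusted p from 0.104 to 0.267). Both comparisons share the PEO1 libraries. Between the resistant lines, PEO6 against PEO4, ESR1 (-0.85 ± 0.28, adjusted p = 0.016), GREB1 (-1.24 ± 0.32, adjusted p = 0.0015) and NR3C1 (-1.45 ± 0.28, adjusted p = 6.6e-06) were all lower in PEO6, 3 of 7 genes against 18.2% of all. The ESR1 difference was lost in edgeR (adjusted p = 0.067) and without replicate 1 or 2 (0.211 and 0.396), and the GREB1 difference without replicate 1 or 2 (0.158 and 0.128).

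In OVCAR4 ResA against OVCAR4, TFF3 alone passed, at least 5.36-fold higher (adjusted p = 0.0051), against 11.9% of all genes. Mitochondrial rRNA took a lower share in OVCAR4 ResA in replicates 2 and 3 and a higher one in replicate 1, and its part in the result was not tested. It was lost in edgeR (adjusted p = 0.071) and without replicate 2 or 3 (0.252 and 0.158). Without replicate 1 of OVCAR4 ResA, 42.5% of all genes and 3 of the 7 passed: TFF3, PGR (log2 fold change 2.57, adjusted p = 0.00012) and NR3C1 (0.90, adjusted p = 9.2e-05). Because of the block, these fold changes rest on replicates 2 and 3 of both lines. Replicate 1 of OVCAR4, which then had no partner, held 105 PGR counts, against 16 and 11 in its replicates 2 and 3. The parts of the 2 libraries in this change of calls were not separated. With replicate 1 of OVCAR4 ResA included, PGR had a log2 fold change of 1.38 ± 0.80 (adjusted p = 0.292), NR3C1 of 0.75 ± 0.30 (adjusted p = 0.090) and ESR1 of 1.35 ± 0.61 (adjusted p = 0.139). ESR1 was at 0.58 ± 0.62 without it (adjusted p = 0.484). GREB1 had 0.29 ± 0.98 with it and -0.72 without it, and passed neither time.

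In OVCAR4 ResB against OVCAR4, PGR fell and NR3C1 rose. PGR, at 0 counts in all 3 ResB libraries, was at least 15.8-fold lower (adjusted p = 5.8e-06), and NR3C1 rose by 1.28 ± 0.32 (adjusted p = 0.00092). These were 2 of 7 genes, where 17.9% of all genes were called. Mitochondrial rRNA took a higher share in OVCAR4 than in OVCAR4 ResB in replicates 2 and 3 and a lower one in replicate 1, and its part in the result was not tested. The NR3C1 call was lost when replicate 2 or 3 was left out (adjusted p = 0.190 and 0.297). Between the 2 resistant lines, OVCAR4 ResB had lower ESR1 (log2 fold change -2.40 ± 0.59, adjusted p = 0.00028), PGR (at least 32.0-fold, adjusted p = 1.3e-10) and TFF3 (at least 7.26-fold, adjusted p = 8.9e-05) and higher NR3C1 (0.54 ± 0.11, adjusted p = 3.7e-06, with overlapping libraries). This was 4 of 7 genes, against 32.8% of all. Without replicate 1 of OVCAR4 ResA only NR3C1 passed, with 25.4% of all genes called, and the ESR1 difference was -1.50 (adjusted p = 0.107), PGR had an adjusted p of 0.126 and TFF3 of 0.300. The standard error was then 4.79 for PGR and 4.79 for TFF3, against 1.30 and 1.58 with that library. Replicates 2 and 3 of OVCAR4 ResA held 124 and 156 PGR counts and 33 and 17 TFF3 counts, against 0 in every OVCAR4 ResB library. The lost calls thus do not show that either difference rested on replicate 1. The PGR call was also lost without replicate 1, 2 or 3 of both lines (0.051, 0.183 and 0.152), the TFF3 call without replicate 1 (0.207) and the NR3C1 call without replicate 2 (0.099). Without replicate 1 of OVCAR4 ResB, where the block left replicate 1 of OVCAR4 ResA without a partner, GREB1 also passed (2.11, adjusted p = 0.043).

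In the OVCAR3 family only GREB1 passed. It changed by -1.17 ± 0.34 (adjusted p = 0.0021) in OVCAR3 ResA against OVCAR3, where 44.9% of all genes were called. This was 1 of 7 genes, of which 4 had an adjusted p. In OVCAR3 ResB against OVCAR3, where 7.67% of all genes were called, 0 of 7 passed in DESeq2, none had an unadjusted p under 0.05, and edgeR called 0. GREB1 was 1.46 ± 0.48 log2 higher in OVCAR3 ResB than in OVCAR3 ResA (adjusted p = 0.020), 1 of 7 genes against 13.5% of all. The libraries of OVCAR3 ResA (0.380, 0.465 and 0.634 TPM) did not overlap those of the other 2 lines. The first call was lost without replicate 1 or 2 (adjusted p = 0.118 and 0.162), and the last without any 1 of the 3.

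**Figure D3:**
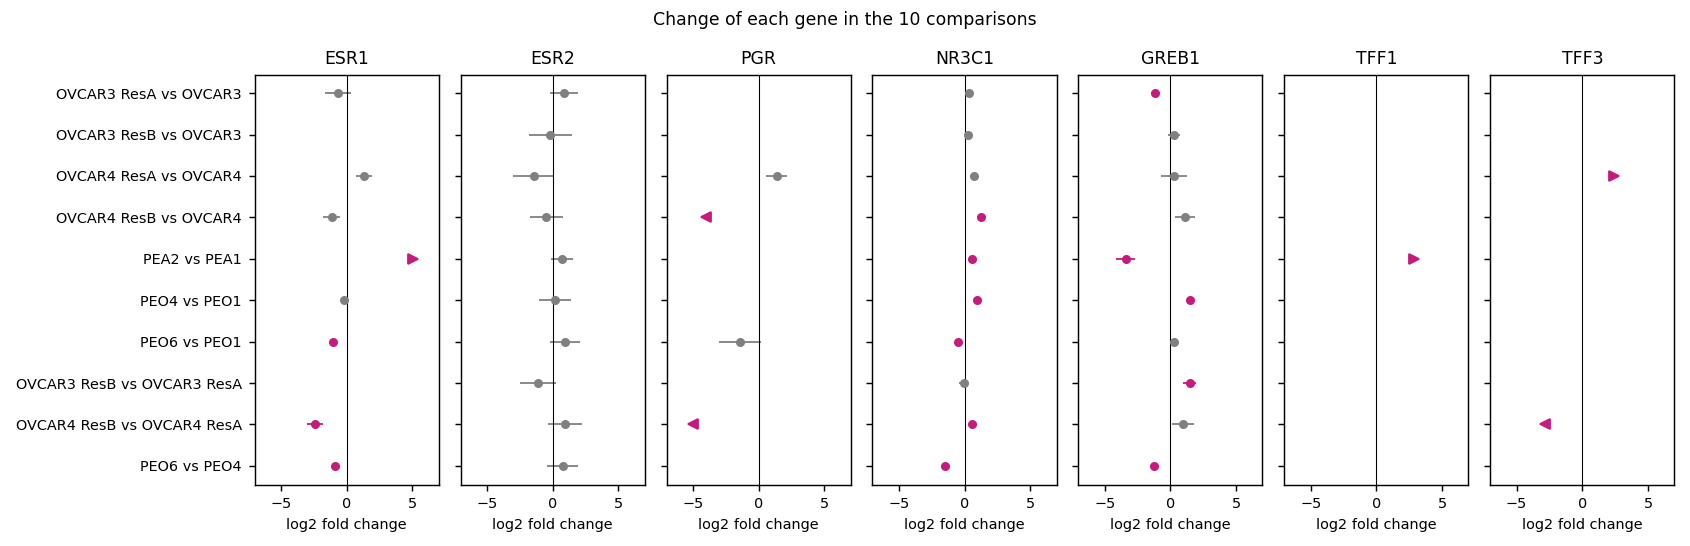
Log2 fold change of each of the 7 genes in the 10 comparisons; circles are DESeq2 estimates with their standard error, triangles are lower bounds pointing in the direction of the change where 1 line had 0 counts, pink marks an adjusted p under 0.05, and other combinations, with too few counts for either, are left blank. ESR1 and GREB1 both passed in PEA2 against PEA1, in opposite directions, and in PEO6 against PEO4, in the same direction.

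With lines rather than libraries as the unit, and family as a covariate, none of the 7 genes differed between resistant and sensitive lines in DESeq2. None had an unadjusted p under 0.05, edgeR called 0, and 0.286% of all genes tested passed. NR3C1 had a log2 fold change of 0.56 ± 0.34 and ESR1 of 0.33 ± 1.04. With replicate 1 of OVCAR4 ResA left out, again none passed or had an unadjusted p under 0.05, and ESR1 was at 0.04 ± 0.99. Differences between families in the change from sensitive to resistant lines were tested across all genes in 1 fit. Of the 7 genes, 2 differed between OVCAR3 and OVCAR4 (22.6% of all genes), 2 between OVCAR3 and PEA (37.0%), 0 between OVCAR3 and PEO (32.1%), 3 between OVCAR4 and PEA (41.4%), 1 between OVCAR4 and PEO (34.9%) and 2 between PEA and PEO (43.7%). When replicate 1 of OVCAR4 ResA was left out, the ESR1 difference between OVCAR3 and OVCAR4 no longer passed (adjusted p = 0.061), and a GREB1 difference between OVCAR3 and PEO passed (-1.29, adjusted p = 0.0012).

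Whether targets followed ESR1 depended on which lines were compared. Line means of ESR1 fell into 2 clusters, the 3 PEO lines and the other 8 lines, so the correlation over all 11 lines reflects the gap between them: it was 0.89 (Pearson r of log2(TPM + 1)) for GREB1, with a Spearman rho of 0.28. Over the 8 lines outside the PEO family, GREB1 had r of -0.67 and rho of -0.81. Over all 11 lines r was -0.07 for PGR (rho 0.64), -0.10 for TFF1 (rho 0.58) and -0.12 for TFF3 (rho -0.03), so r and rho differed in sign for PGR and TFF1. Over the 8 lines r was 0.77 for PGR (rho 0.49), 0.68 for TFF1 (rho 0.89) and 0.81 for TFF3 (rho 0.61). The 8-line r without replicate 1 of OVCAR4 ResA was -0.79 for GREB1, 0.60 for PGR, 0.82 for TFF1 and 0.62 for TFF3. With the mean of each family subtracted, r over the 11 lines was -0.14 for GREB1, 0.59 for PGR, 0.66 for TFF1 and 0.66 for TFF3. Without replicate 1 of OVCAR4 ResA these were -0.20, 0.37, 0.68 and 0.42. These are descriptions on lines that share families, and PGR, TFF1 and TFF3 are near 0 in most of the lines.

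**Figure D4:**
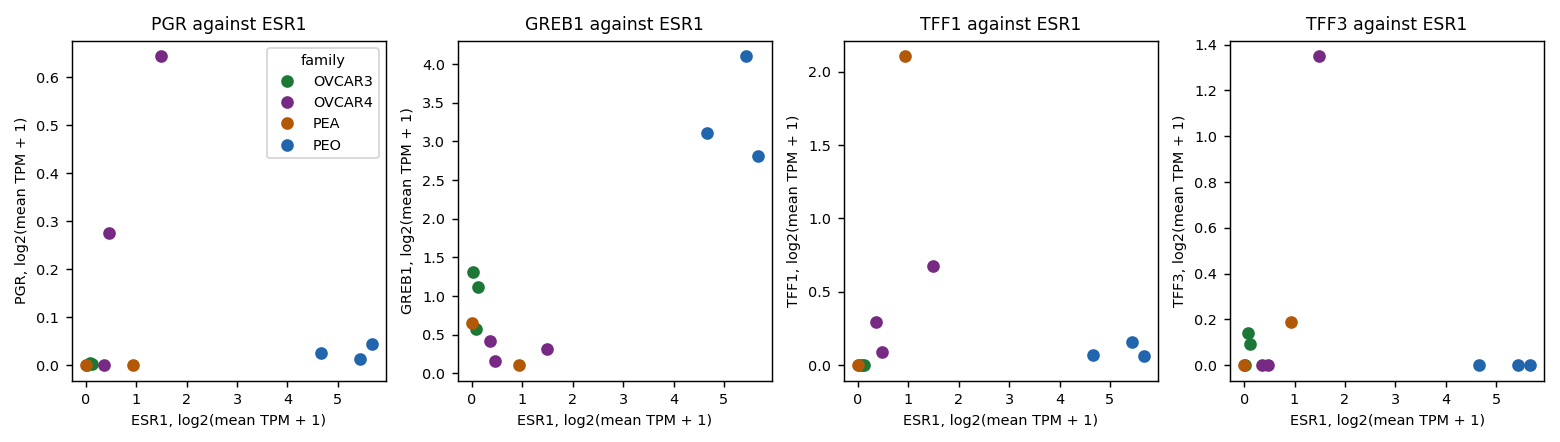
Level of PGR, GREB1, TFF1 and TFF3 against ESR1 in the 11 lines, as log2(mean TPM + 1); each point is the mean of 3 libraries of 1 line, coloured by family. The 3 PEO lines lie apart on the ESR1 axis, where GREB1 was high and PGR, TFF1 and TFF3 were near 0.

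A wider list of 36 estrogen-induced genes was set beside ESR1 in the same way, as a description with no test. For the 33 that reached 1 TPM in a line, the median r over the 11 lines was 0.149, against -0.00086 for all 16914 genes at that level. Of these 33, 8 (24.2%) had r above 0.5 with ESR1 over the 11 lines and 1 (3.03%) r below -0.5, against 19.9% and 15.04% of the 16914 genes. The 8 included RARA, a retinoic acid receptor (r = 0.89, rho 0.36), TPD52L1 (0.87, rho 0.48) and SLC9A3R1 (0.87, rho 0.58). XBP1, a regulator of the unfolded protein response, had r of -0.63 and rho of -0.23. These r values also carry the gap between the PEO lines and the rest. With family means removed, r was -0.05 for RARA, 0.17 for TPD52L1, 0.05 for SLC9A3R1 and 0.69 for XBP1. For the others of the 8 it was 0.75 for FKBP4, 0.49 for CTSD, -0.62 for PDZK1, -0.34 for SUSD3 and -0.56 for ABAT. The median over the list was then 0.194, against 0.0081 for all genes at that level. It was 0.257 against -0.018 without replicate 1 of OVCAR4 ResA, and 0.035 against -0.027 on variance-stabilised counts.

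In PEA2 against PEA1, where ESR1 rose, 15 of these 36 genes rose and 8 fell (23.3% and 23.8% of all genes tested), with a median log2 fold change of 0.75 among those with an adjusted p (-0.02 over all genes). AGR2, a secretory pathway protein, was at least 1392-fold higher, and AREG, a ligand of the epidermal growth factor receptor, rose by 7.56 ± 0.31. BCL2 changed by -5.58 ± 0.35 and CA12, a carbonic anhydrase, by -3.93 ± 0.26. In PEO6 against PEO1, where ESR1 fell, 7 rose and 12 fell (21.2% and 20.3% of all genes; median -0.25, over all genes 0.02). CA12 changed by -6.79 ± 0.31, while RERG rose by 8.07 ± 0.29. In PEO4 against PEO1, with no call for ESR1, 9 rose and 4 fell (16.6% and 16.7% of all genes), and CA12 changed by -3.09 ± 0.20.

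In OVCAR3 ResA against OVCAR3, lines with almost no ESR1, 6 of the 36 genes rose and 19 fell (22.0% and 22.9% of all genes; median -0.96, over all genes -0.02). PDZK1 rose by 2.87 ± 0.20 and ANXA9 changed by -2.02 ± 0.24. In OVCAR3 ResB against OVCAR3, 4 rose and 4 fell (4.10% and 3.57% of all genes). In OVCAR4 ResA against OVCAR4, 6 rose and 3 fell (6.68% and 5.22% of all genes), with CA12 up by 2.12 ± 0.31 and IGFBP4, an insulin-like growth factor binding protein, at -1.38 ± 0.34. When replicate 1 of OVCAR4 ResA was left out, 9 rose and 5 fell (22.2% and 20.3% of all genes), with CA12 at 1.94 ± 0.21 and IGFBP4 at -1.69 ± 0.19. In OVCAR4 ResB against OVCAR4, 7 rose and 5 fell (9.09% and 8.77% of all genes), with MAPT up by 4.31 ± 0.47 and the keratin gene KRT13 at -3.91 ± 0.44. Between resistant lines, 9 were higher and 3 lower in OVCAR3 ResB than in ResA (7.47% and 6.04% of all genes). In OVCAR4 ResB against ResA 7 were higher and 11 lower (16.2% and 16.5%), or 9 and 9 without that library (12.1% and 13.3%), and in PEO6 against PEO4 6 were higher and 10 lower (9.86% and 8.33%).

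**Figure D5:**
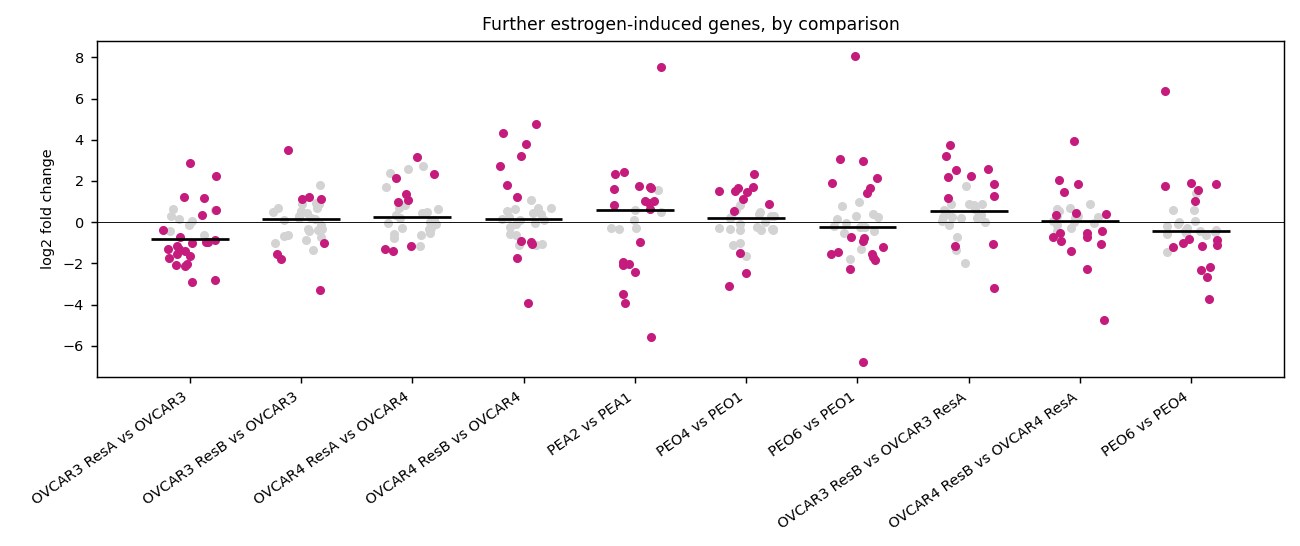
Log2 fold change of the wider list of estrogen-induced genes in the 10 comparisons; each point is 1 gene with an adjusted p and counts in both lines, pink marks an adjusted p under 0.05, and black bars are the medians of the points. The points lie lowest in OVCAR3 ResA against OVCAR3, where 19 of 36 genes fell.

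ESRRA, an orphan receptor of energy metabolism, rose by 1.92 ± 0.26 in PEA2 and changed by -1.05 ± 0.38 in OVCAR4 ResB, each against its sensitive line. It rose by 0.72 ± 0.24 in PEO6 against PEO1. ESRRG, a related orphan receptor, changed by -1.22 ± 0.27 in OVCAR3 ResA against OVCAR3.

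Cofactors of the estrogen receptor were called in all 7 resistant-sensitive pairs, and differences between families were not tested for them. FOXA1, the pioneer factor that opens chromatin for ESR1, rose by 4.96 ± 0.37 in PEA2 and by 1.57 ± 0.35 in OVCAR4 ResA (1.64 ± 0.32 without its replicate 1), both against their sensitive line. It changed by -2.16 ± 0.25 in OVCAR3 ResA, by -2.38 ± 0.49 in OVCAR3 ResB and by -0.73 ± 0.25 in PEO4. GATA3, a partner of ESR1 in luminal cells, changed by -2.86 ± 0.21 in PEO4 and by -2.74 ± 0.23 in PEO6. Of the 11 cofactors, 4 rose and 5 fell in OVCAR3 ResA, against 44.9% of all genes called. The counts were 1 and 1 in OVCAR3 ResB (7.67%), 1 and 1 in OVCAR4 ResB (17.9%), 5 and 4 in PEA2 (47.0%), 2 and 3 in PEO4 (33.3%), and 0 and 5 in PEO6 (41.4%). In OVCAR4 ResA they were 2 and 0 (11.9%), or 6 and 1 without its replicate 1 (42.5%).

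Genes induced by glucocorticoids were called in both directions in several comparisons. In PEO4 against PEO1, where NR3C1 rose, 3 of these 9 genes rose and 2 fell (16.6% and 16.7% of all genes): FKBP5, a chaperone of the receptor, rose by 0.87 ± 0.21, and SGK1, a kinase, changed by -3.14 ± 0.20. In PEO6 against PEO1, where NR3C1 fell, 3 rose and 3 fell (21.2% and 20.3% of all genes), FKBP5 again rising (1.05 ± 0.24) and SGK1 changing by -4.42 ± 0.27. In PEA2 against PEA1, 3 rose and 1 fell (23.3% and 23.8% of all genes), FKBP5 being the one that fell (-1.13 ± 0.29). In the OVCAR4 family, DUSP1, a phosphatase gene, was the 1 called gene in ResA (2.12 ± 0.38, against 11.9% of all genes). It was at 2.05 ± 0.72 without replicate 1 of OVCAR4 ResA, and 2 genes rose and 1 fell against 42.5% of all genes. In OVCAR4 ResB 1 rose and 1 fell (17.9% of all genes called). In OVCAR3 ResA, 4 rose and 1 fell (44.9% called), and in OVCAR3 ResB, 0 rose and 1 fell (7.67% called).

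Of 9 genes of estrogen metabolism, STS, which releases estrogen precursors from their sulfates, rose in OVCAR4 ResA (2.40 ± 0.53, or 3.15 ± 0.35 without its replicate 1) and OVCAR4 ResB (1.56 ± 0.51) against OVCAR4 and changed by -1.05 ± 0.26 in PEO6. HSD17B8, a hydroxysteroid dehydrogenase, changed by -6.94 ± 0.82 in OVCAR3 ResB and rose by 2.22 ± 0.32 in PEO6. In all, 3 of the 9 passed in OVCAR3 ResA (44.9% of all genes), 3 in OVCAR3 ResB (7.67%), 1 in OVCAR4 ResA (11.9%, or 2 and 42.5% without its replicate 1), 2 in OVCAR4 ResB (17.9%), and 5 each in PEA2 (47.0%), PEO4 (33.3%) and PEO6 (41.4%).

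The genes most like each member over the 11 line means, among 13185 genes that reached 5 TPM in a line, were NLRP2, ADIRF, THY1, ABO and CYP4F3 for ESR1 (Pearson r of log2(TPM + 1) 0.987 to 0.992). For NR3C1 they were ATP6V1C1, GPX8, LRPPRC, RBM23 and PIK3C3 (0.948 to 0.967), and for GREB1 DLGAP1, ERAP2, DSC3, FAM180A and TGM1 (0.958 to 0.969). For TFF1 they were RXFP1, CDH5, SAA4, IL1A and TXK (0.968 to 0.988), and for TFF3 they included SNAR-A6, INSL4, HORMAD2 and LUM (0.927 to 0.961). Of the 7 genes only ESR1, NR3C1 and GREB1 reached 5 TPM in a line and could be listed. None of these was among the 5 most like another member, and for ESR2, PGR, TFF1 and TFF3 the search could not tell.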

How the data were processed

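Libraries were prepared from poly(A) mRNA and sequenced as 1 pool over several runs, and the labels name no run. The published methods name nf-core/rnaseq on GRCh38, with gene tables from salmon, and the submitters' processing notes also name DRAGEN. The authors deposited expected counts per gene, not normalised (88.39% were whole numbers), and TPM, scaled by gene length to a fixed sum, which carries no depth. Of the 29744 gene rows, 5100 had no count after rounding. Whether strand was used in counting is not given in the sources used here, so overlapping or antisense genes cannot be told apart.

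The 7 genes and all gene lists were chosen with earlier results of these data known, and are no independent evidence. Expected counts were rounded and fitted for each of the 10 comparisons in R 4.3.3 with DESeq2 1.42.0 (Wald test, 6 libraries, replicate number as a block as in the study, no filter, Benjamini-Hochberg adjustment over all genes, call under 0.05). A further DESeq2 fit used line sums with family as covariate, and a fit of all 33 libraries tested differences between families. Folds against lines at 0 used a floor of 3 counts per library. Alternatives were edgeR 4.0.16, limma 3.58.1 on log2(TPM + 1) and log2(TPM + 0.1), no block, 1 fit of all libraries, filters, and leaving out replicates or single libraries. Scripts were tested on simulated data.

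Same-numbered replicates deviated together (all 3 correlations over 0.1) between OVCAR4 ResA and OVCAR4 ResB (0.864, 0.817 and 0.750) and between OVCAR3 and OVCAR3 ResA (0.872, 0.393 and 0.758), not in the other 8 comparisons. All 3 were negative for OVCAR4 ResA (-0.65, -0.53 and -0.31) and OVCAR4 ResB (-0.62, -0.55 and -0.21) against OVCAR4 and for PEO6 against PEO4 (-0.50, -0.21 and -0.55). In OVCAR4 ResA against OVCAR4, 1784 genes were called with the block and 3462 without it. Median log2 change in TPM among genes of at least 1 TPM was 0.44 and 0.47 in OVCAR4 ResA and OVCAR4 ResB against OVCAR4 and 0.14 and 0.11 in the OVCAR3 pairs, so folds of TPM there differ from the DESeq2 values, whose medians over all genes lay from -0.02 to 0.02. Named genes were all 7 members, from each list and comparison at most the 2 largest rises and 2 largest falls among called genes with a mean of at least 100 counts, and the 5 genes most like each member that reached 1 TPM in a line, among genes reaching 5 TPM. RARA, TPD52L1, SLC9A3R1, XBP1, the other genes named with them for r above 0.5 and the genes of the OVCAR4 ResA library check were named after their values were seen. Gene positions and upstream sequences are from RefSeq GRCh38.p14. A few results for other genes are not reported here.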

Additional observations from a re-analysis of the deposited data

Results flagged for a closer look

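The change from sensitive to resistant lines differed between families for 10 of 42 gene and family combinations, by a contrast within 1 DESeq2 fit of all 33 libraries, where 22.6% to 43.7% of all genes tested differed. For ESR1 the OVCAR3 minus OVCAR4 difference was -1.998 log2 (adjusted p = 0.035), the OVCAR3 minus PEA difference -10.74, the OVCAR4 minus PEA difference -8.74 and the PEA minus PEO difference 9.73. The sizes of the last 3 depend on the fit, because PEA1 had no ESR1 count, and are no bounds. For GREB1 the OVCAR3 minus PEA difference was 2.88, the OVCAR4 minus PEA difference 4.45 and the PEA minus PEO difference -4.19 (adjusted p from 7.3e-08 to 0.00049). For NR3C1 the OVCAR3 minus OVCAR4 difference was -0.77, the OVCAR4 minus PEA difference 0.45 and the OVCAR4 minus PEO difference 0.80 (adjusted p from 6.7e-06 to 0.027). The ESR1 difference between OVCAR3 and OVCAR4 used replicate 1 of OVCAR4 ResA and was -1.36 (adjusted p = 0.061) without it, -1.64 (adjusted p = 0.074) without replicate 1 of every line, -1.67 (adjusted p = 0.260) without replicate 2 and -2.70 (adjusted p = 0.062) without replicate 3. PEA1, the sensitive line of the PEA family, was also the line with the low carcinoma marker sum, though not low PAX8, and high COL1A1.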

How the results depend on the processing

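Of the 20 calls for single genes in the 10 comparisons, 5 held in every alternative that gave a value: TFF1 and GREB1 in PEA2, NR3C1 and GREB1 in PEO4, and ESR1 in PEO6. The number of the 7 genes called moved as follows. With edgeR it was 2 in OVCAR3 ResA against OVCAR3 and 0 in OVCAR4 ResA and 1 in PEO6 against their sensitive lines. In 1 fit of all libraries it was 0 in OVCAR3 ResA, 1 (ESR1) in OVCAR3 ResB, 2 in OVCAR4 ResA and 1 in PEO6 against PEO4. With limma on log2(TPM + 1) and log2(TPM + 0.1) it was 0 in both OVCAR4 pairs, OVCAR3 ResB against OVCAR3 ResA and PEO6 against PEO4, 1 in PEO6 against PEO1, and with log2(TPM + 1) 2 in OVCAR4 ResB against OVCAR4 ResA. With limma and the filter it was 0 in OVCAR4 ResB against OVCAR4 and in OVCAR3 ResB against OVCAR3 ResA, 1 in PEA2, PEO6 against PEO1 and PEO6 against PEO4, and 2 in OVCAR4 ResB against OVCAR4 ResA. Without the replicate block 3 were called in OVCAR4 ResA against OVCAR4, with ESR1 (adjusted p = 0.031) and NR3C1 (adjusted p = 0.0013) added, and in no other comparison did the number called change; same-numbered samples did not deviate together there. The differences between families numbered 10, or 12 without the replicate block, 9 with edgeR, 10 without replicate 1 of OVCAR4 ResA and 7 to 10 with replicates left out. Leaving out replicates gave 0 to 1 in OVCAR3 ResA, 0 to 0 in OVCAR3 ResB, 0 to 3 in OVCAR4 ResA, 1 to 2 in OVCAR4 ResB, 3 to 4 in PEA2, 2 to 2 in PEO4, 1 to 1 in PEO6, 0 to 0 in OVCAR3 ResB against ResA, 1 to 5 in OVCAR4 ResB against ResA and 1 to 3 in PEO6 against PEO4; leaving out only replicate 1 of OVCAR4 ResA gave 3 in OVCAR4 ResA against OVCAR4 and 1 in OVCAR4 ResB against ResA.

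Signs turned, with no adjusted p under 0.05 on either side, as follows. Leaving out replicates gave log2 fold changes from -0.72 (without replicate 1) to 0.86 for GREB1 in OVCAR4 ResA against OVCAR4, -0.045 to 0.63 for GREB1 in PEO6 against PEO1, -0.15 to 0.12 for NR3C1 in OVCAR3 ResB against ResA and -0.56 to 0.95 for ESR2 in PEO4 against PEO1. Without replicate 1 of OVCAR4 ResA alone GREB1 was also at -0.72 there, since the block left replicate 1 of OVCAR4 without a partner. ESR2 in OVCAR4 ResB was at 0.016 and 0.083 in limma with the 2 pseudocounts. In the test on lines, leaving out replicates gave -0.022 to 0.55 for ESR1 and -0.23 to 0.023 for GREB1. Without the PEA family it gave -0.39 for ESR1, 0.57 for GREB1 and -0.076 for ESR2, and without the PEO family -0.12 for ESR2. The correlation with ESR1 was, with log2(TPM + 0.1), 0.092 for PGR, 0.71 for GREB1 and 0.12 for TFF1; with variance-stabilised counts, 0.12, 0.83 and 0.016; without PEO1 and PEO4, the 2 lines farthest from the median, 0.10, 0.76 and 0.054, and 0.081 for TFF3. Without the 3 PEO lines it was 0.77, -0.67, 0.68 and 0.81 for PGR, GREB1, TFF1 and TFF3, and without replicate 1 of OVCAR4 ResA besides, 0.60, -0.79, 0.82 and 0.62; over the 11 lines, leaving out that library alone gave -0.12 for PGR, -0.11 for TFF1, -0.17 for TFF3 and 0.90 for GREB1, and for TFF1 the lowest value was -0.13, without replicate 2. The cause of these changes was not tested. Over all genes the number called also moved by over 1.5 times, from 2 to 3057 (1255 in the fit used) in OVCAR3 ResB against OVCAR3, 0 to 6289 (1784) in OVCAR4 ResA, 0 to 7340 (2853) in OVCAR4 ResB, 4920 to 9839 (8146) in OVCAR3 ResA, 4283 to 9174 (8088) in PEA2, 2921 to 6388 (5820) in PEO4, 3712 to 7607 (6962) in PEO6, 6 to 5042 (2202) in OVCAR3 ResB against ResA, 1847 to 5947 (5218) in OVCAR4 ResB against ResA, 273 to 5223 (3043) in PEO6 against PEO4 and 0 to 199 (68) in the test on lines. TFF1, TFF3, ESR2 and PGR rest on few counts, so differences among lines at or near 0 were not detectable at this depth.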
